A study of Mus musculus with 2 samples.

Results

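The genes described here are the myocardin, SRF and MEF2 regulators, a set of 9 transcription factors and coactivators that act on muscle and cytoskeletal genes. They are Myocd, Srf, Mkl1 (now named Mrtfa), Mkl2 (now named Mrtfb), Mef2a, Mef2c, Mef2d, Klf4 and Elk1. They were found by name, older and newer names included, among the non-control probes of the array, and make up 9 of the 31693 gene names on it. Together they had 16 probes of 60 bases: 6 of them had more than 1 probe and 3 had a single probe. Of the 16 probes, 15 passed the filter on dim signals, and those 15 were well above background in every channel. All 9 genes had at least 1 passing probe. A probe named Mal, an older alias of Mkl1, was left out because its accession belongs to another gene of that name.

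Total RNA of mouse ureters, dissected from NMRI embryos at stage E14.5, was hybridised to 2 two-colour arrays. The first genotype, called Bmp4cKO, was Tbx18(cre/+);Bmp4(fl/fl), in which cre stands in 1 Tbx18 copy and both Bmp4 alleles are floxed. The other, called control, was Tbx18(+/+);Bmp4(fl/?), with no cre, at least 1 floxed Bmp4 allele and a second allele that the labels leave undefined. Cre driven from the Tbx18 locus acts in cells that have expressed Tbx18, which in the ureter are those of the mesenchyme, and Bmp4cKO embryos therefore keep 1 intact Tbx18 copy. On replicate 1, labelled female, the RNA labelled Bmp4cKO carried the green AlexaFluor dye and the RNA labelled control the red one. On replicate 2, labelled male, the dyes were the other way round. Each RNA came from 200 ng of starting material. No source used here states how many embryos went into an RNA.

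Serum response factor, SRF, is a DNA-binding protein that recognises the CArG box and serves different programmes through different partners. Myocardin and the myocardin-related factors MRTF-A and MRTF-B drive contractile and cytoskeletal genes with it, and the MRTFs are held in the cytoplasm by monomeric actin. Ternary complex factors such as ELK1 bind SRF at immediate early genes after growth factor signalling and compete with myocardin for it, while KLF4 is known as a repressor of smooth muscle genes. MEF2 proteins are DNA-binding factors of muscle, neural and vascular cells that act on their own box in DNA and on the Myocd gene in other settings. In the ureter, mesenchymal cells next to the urothelium become smooth muscle around this stage, and myocardin is the factor most closely tied to that step.

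The targeted gene went against the labels. The single passing Bmp4 probe had processed signals of 29491 and 27393 in the RNAs labelled Bmp4cKO (replicates 1 and 2), against 3613 and 1973 in the RNAs labelled control, a mean log2 ratio of 3.38 ± 0.48 (SD, n = 2 arrays; limma adjusted p = 0.016). That probe lies at chr14:47003391-47003450 (mm9). No source used here places it inside or outside the floxed part. A probe outside the deleted part does not read the deletion itself, and the cause of the higher Bmp4 signal was not tested. Tbx18 was also higher, at 5076 and 5851 in the RNAs labelled Bmp4cKO against 2603 and 2875 in the RNAs labelled control (mean log2 0.97 ± 0.17, limma adjusted p = 0.040). By the labels, Bmp4cKO embryos keep 1 intact Tbx18 copy, so this direction also runs against the labelled gene copies. On replicate 2, Ddx3y and Eif2s3y, which lie on the Y chromosome, read 6.25 and 8.68 in the RNA labelled Bmp4cKO, against 2720 and 2741 in the RNA labelled control, and only the control pair was well above background. Xist, expressed from the inactive X, has 2 probes here. On replicate 2 they read 1464 and 2120 in the Bmp4cKO-labelled RNA, against 4.31 (not well above background) and 85.2 (well above it) in its control-labelled partner. The 2 RNAs of replicate 2 therefore differed in their sex-linked transcripts although both are labelled male, and every value below is given for each array on its own. All directions follow the dye labels, and "higher" means higher in the RNA labelled Bmp4cKO, the direction in which Bmp4 itself was higher. The authors' deposited table runs the opposite way. Whether the dye labels are exchanged is not settled by the files used here. With them exchanged, every log2 ratio below turns its sign, and the words rose and fell change places.

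Levels below are Agilent's processed signals of 1 channel in arbitrary units. They can be set against each other for 1 probe, not between probes. Log2 ratios, Bmp4cKO-labelled over control-labelled RNA, come from background-corrected and loess-normalised spots, and the adjusted p of limma runs over all 21977 genes tested. With 2 arrays, these p-values measure only the spread between the arrays and lean mostly on the variance shared over genes.

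Of the 9 regulators, 0 were called higher and 0 lower at an adjusted p under 0.05, against 0.887% and 1.02% of all genes tested. In either direction 1.91% of all genes were called. At an unadjusted p under 0.05 there was 1 member in limma, Myocd, which was higher, as were 7.15% of all genes at that p. With plain background subtraction, limma called Myocd, and 3.31% of all genes. Myocd was the only member higher on both arrays, a pattern of 28.2% of all genes, and Mkl2 the only one lower on both, a pattern of 30.6%. The other 7 had opposite signs on the arrays, as did 41.2% of all genes. All 7 were below 0 on replicate 1 and above 0 on replicate 2, a pattern that 18.9% of all genes showed. The median over the members was -0.14 on replicate 1 and 0.52 on replicate 2, against 0.00 and -0.02 over all genes tested.

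**Figure D1:**
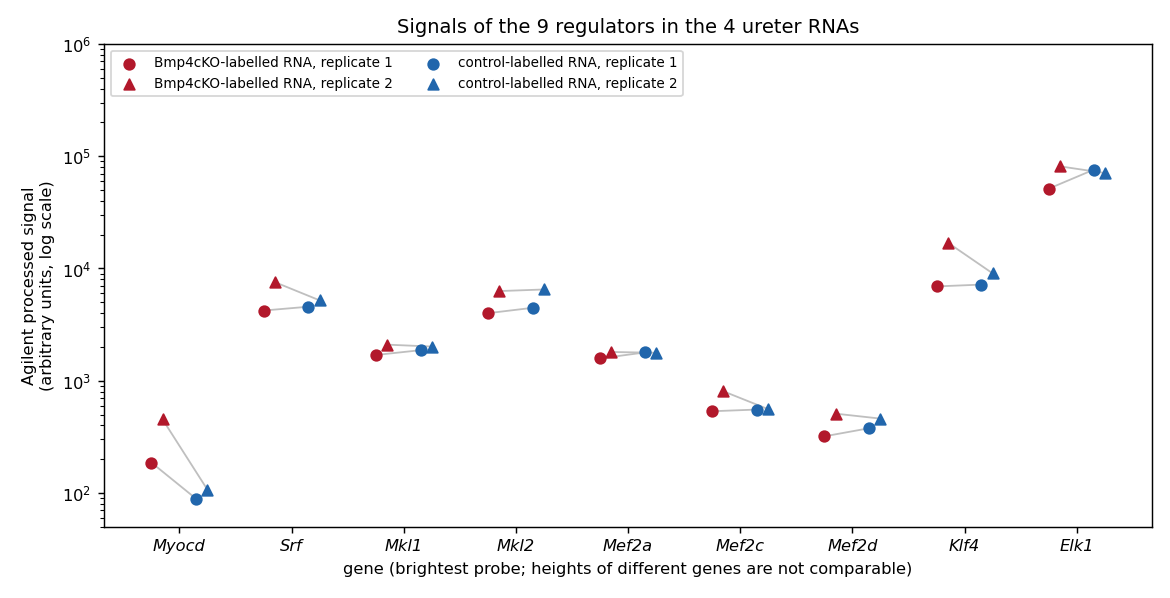
Processed signal (arbitrary units, log scale) of the brightest probe of each regulator in the 4 RNAs, the RNAs labelled Bmp4cKO in red and the RNAs labelled control in blue, circles for replicate 1 and triangles for replicate 2, with grey lines joining RNAs of 1 array. Myocd, at 187 and 452 in the RNAs labelled Bmp4cKO against 88.6 and 107 in the RNAs labelled control, is the gene whose groups lie apart.

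Myocd, which encodes myocardin, was the member with the largest ratio. Its probe is shown because the largest difference in the set rests on it, and because it is the gene's single probe on the array. It lies at chr11:64991930-64991989 (mm9, minus strand) and shares no run of 20 bases with any other probe.
Myocd probe: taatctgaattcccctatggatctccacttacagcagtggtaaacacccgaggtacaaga
The signal was 187 and 452 in the RNAs labelled Bmp4cKO (replicates 1 and 2), against 88.6 and 107 in the RNAs labelled control. Both RNAs labelled Bmp4cKO were above both RNAs labelled control, so the groups did not overlap, but the higher value of replicate 2 was 2.42 times that of the next RNA. The share of all genes whose groups did not overlap was not counted, so a separation here or below does not set a gene apart. On replicate 1 the log2 ratio was 0.81, on replicate 2 it was 1.77, with a mean of 1.29 ± 0.68 (SD, n = 2), a 2.45-fold ratio. Its 95% interval in limma ran from 0.66 to 1.92, and its adjusted p was 0.085, so it missed the threshold. The folds on the single arrays were 1.75 and 3.42. In the authors' deposited table the signed folds were -2.11 and -4.23, with the sign turned as for Bmp4. Among all genes tested Myocd ranked 108th by the mean ratio counted from the highest, and 58 genes (0.264%), Myocd included, were at least as high on both arrays. With the dye labels exchanged, the same rank and count hold from the lowest. Since the RNA is from whole ureters, more cells that express Myocd and more Myocd RNA per cell cannot be told apart.

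Srf itself, the DNA-binding partner of myocardin, had 4220 and 7562 in the RNAs labelled Bmp4cKO against 4567 and 5200 in the RNAs labelled control. One RNA labelled Bmp4cKO was the lowest of the 4 and the other the highest, so the groups overlapped. The log2 ratios were -0.13 and 0.52 (mean 0.20 ± 0.46, 95% interval -0.28 to 0.67, limma adjusted p = 0.753). A second Srf probe gave ratios of the same signs, -0.25 and 0.57, from signals of 673 and 1160 against 751 and 797. The Srf promoter is shown because SRF is known to act on its own gene through CArG boxes. A stretch from -100 to -31, counted from the gene start, at chr17:46556193-46556262 (GRCm38.p6, minus strand, from RefSeq), holds a pair of them in capitals.
Srf promoter: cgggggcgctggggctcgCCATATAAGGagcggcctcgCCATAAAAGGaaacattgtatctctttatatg
The boxes begin at -82 and -62. Of 32851 RefSeq promoter windows of 300 bases (250 before to 50 after each start), 1.63% held a CArG box on either strand, a motif that is its own reverse complement. RefSeq windows were found for 8 of the 9 members, Myocd having none in the table, and Srf was the single member with a box in these windows. A match is a description of the letters and not a bound site.

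The myocardin-related factors, which couple actin dynamics to SRF, did not pass the test. Mkl1, encoding MRTF-A, had 1695 and 2097 in the RNAs labelled Bmp4cKO against 1872 and 2017 in the RNAs labelled control. The 4 RNAs overlapped, with log2 ratios of -0.12 and 0.08 (mean -0.02 ± 0.15, 95% interval -0.34 to 0.30, limma adjusted p = 0.980). Its other probe gave -0.42 and 0.07. Mkl2, encoding MRTF-B, had 3997 and 6291 in the RNAs labelled Bmp4cKO against 4466 and 6502 in the RNAs labelled control by its brightest probe. Each RNA labelled Bmp4cKO lay just below its partner on the array, while the arrays differed from each other by more. The log2 ratios were -0.27 and -0.01 (mean -0.14 ± 0.19, 95% interval -0.47 to 0.19, limma adjusted p = 0.751).

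The Mkl2 probes disagreed. A dim probe annotated to another Mkl2 accession had 48.0 and 66.7 in the RNAs labelled Bmp4cKO against 37.4 and 39.3 in the RNAs labelled control. On it both RNAs labelled Bmp4cKO were above both RNAs labelled control, with log2 ratios of 0.31 and 0.45 (mean 0.38 ± 0.10, limma adjusted p = 0.250 over all passing probes). The third probe, which spans an intron and carries the same accession as the brightest one, gave -0.09 and -0.11. Neither passed the threshold, and the mean over all 3 probes was 0.05. The brightest probe lies at chr16:13417529-13417588 and the probe with the higher ratio at chr16:13332950-13333009 (both mm9, plus strand), upstream of it.

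**Figure D2:**
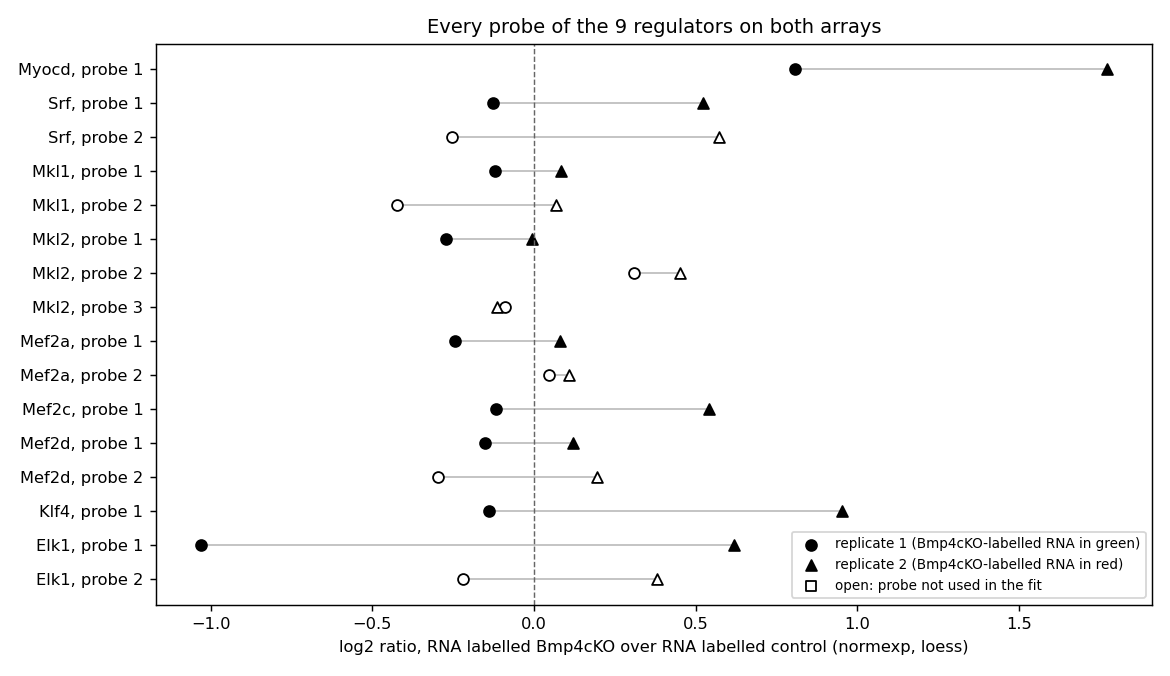
Log2 ratio, Bmp4cKO-labelled over control-labelled RNA, for each of the 16 probes, circles for replicate 1, triangles for replicate 2, filled for the probe used in the fit and open for the others, with grey lines joining the arrays. Myocd lies right of 0 on both arrays, most others lie left of 0 on replicate 1 and right of it on replicate 2, and the second Mkl2 probe lies right of 0 at 0.31 and 0.45.

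Of the MEF2 factors, none passed the test in limma, and at an unadjusted p under 0.05 there was none either. Mef2a, the broadly expressed member of the family, had 1580 and 1805 in the RNAs labelled Bmp4cKO against 1787 and 1774 in the RNAs labelled control. The groups overlapped, with log2 ratios of -0.24 and 0.08 (mean -0.08 ± 0.23, 95% interval -0.43 to 0.27, limma adjusted p = 0.886). Its other probe was the one that did not pass the filter, with 20.7 and 29.2 against 16.5 and 18.9, well above background in 1 of 4 channels. Mef2c, known for its part in heart, vascular and craniofacial development, had 535 and 805 in the RNAs labelled Bmp4cKO against 554 and 557 in the RNAs labelled control. Here 3 RNAs were close together and the RNA labelled Bmp4cKO of replicate 2 stood above them. The log2 ratios were -0.12 and 0.54 (mean 0.21 ± 0.47, 95% interval -0.27 to 0.69, limma adjusted p = 0.735). The Mef2c probe is shown because it is the gene's single probe. Its positions, chr13:83772788-83775025 (mm9, plus strand), span 2238 bases for 60 bases of probe, so it crosses an intron and reads spliced RNA.
Mef2c probe: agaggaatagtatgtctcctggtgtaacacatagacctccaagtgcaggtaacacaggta
Mef2d had 320 and 509 in the RNAs labelled Bmp4cKO against 378 and 460 in the RNAs labelled control. These overlapped too, with log2 ratios of -0.15 and 0.12 (mean -0.01 ± 0.19, 95% interval -0.35 to 0.32, limma adjusted p = 0.983). Its second probe gave -0.30 and 0.19.

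The Mef2a promoter held a MEF2 box, and it is shown because it is the single member with one. The stretch from -60 to 11, counted from the gene start, lies at chr7:67372847-67372918 (GRCm38.p6, minus strand, from RefSeq), with the box in capitals.
Mef2a promoter: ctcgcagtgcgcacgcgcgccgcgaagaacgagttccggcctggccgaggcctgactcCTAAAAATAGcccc
Counted from the gene start, the box begins at -2. Of all 32851 windows, 0.557% held a MEF2 box on either strand, a motif that is its own reverse complement too. The 13 windows of the members thus held 1 window with each motif.

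Klf4, the zinc finger factor known to oppose myocardin at smooth muscle genes, had 6923 and 17020 in the RNAs labelled Bmp4cKO against 7188 and 9050 in the RNAs labelled control. The RNA labelled Bmp4cKO of replicate 1 was the lowest of the 4 and that of replicate 2 was the highest, so the groups overlapped. The log2 ratios were -0.14 and 0.95 (mean 0.41 ± 0.77, 95% interval -0.28 to 1.10, limma adjusted p = 0.612). The probe lies at chr4:55540167-55540226 (mm9, minus strand).

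Elk1, a ternary complex factor encoded on the X chromosome, had a very bright first probe. Its signals were 51383 and 81304 in the RNAs labelled Bmp4cKO against 75789 and 70906 in the RNAs labelled control. These too were lowest and highest in the RNAs labelled Bmp4cKO, with log2 ratios of -1.03 and 0.62 (mean -0.20 ± 1.17, 95% interval -1.19 to 0.78, limma adjusted p = 0.902). The signed folds of this probe were 1.47 and -1.15 in the authors' deposited table, smaller than the loess-normalised ratios. Its sequence is shown in part because it is not unique. The 30 bases from position 16 to 45 of the probe, which lies at chrX:20510521-20510580 (mm9, minus strand), resemble the mouse B1 family of interspersed repeats, and the capitals mark the 20 bases most widely shared.
Elk1 probe, bases 16 to 45: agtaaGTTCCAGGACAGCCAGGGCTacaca
The capitalised bases also occurred in 5 other probes and in 19 RefSeq promoter windows. Over the whole probe, some run of 20 bases was shared with 11 other probes and 45 windows. The other 15 probes of the members shared no such run with another probe. The 11 other probes, none of them named Elk1 and 1 without a gene name, had medians of -0.20 on replicate 1 and -0.04 on replicate 2, with ranges of -1.14 to 0.00 and -0.48 to 0.82. Of these 11, 10 were below 0 on replicate 1 and 5 were above 0 on replicate 2. Those 5 were also below 0 on replicate 1, and were the brightest of the 11 in each RNA. What other loci add to the signal of this probe was not tested. The second Elk1 probe, at chrX:20512461-20512520, shared no run with any other probe. It had 161 and 247 in the RNAs labelled Bmp4cKO against 192 and 181 in the RNAs labelled control, log2 ratios of -0.22 and 0.38 and a mean of 0.08 ± 0.42 (limma adjusted p = 0.913 over all passing probes).

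The 7 regulators with opposite signs were thus all higher in the red than in the green channel on both arrays. Read as red over green, the mean log2 ratio was largest for Elk1 at 0.82 and smallest for Mkl1 at 0.10, and for Klf4 it was 0.55, a size that 1.76% of all genes reached. A limma fit of red over green called 0 of the 21977 genes, with 483 at an unadjusted p under 0.05, and Elk1 was the single member among the 483. The same 7 genes also had their highest signal in the RNA labelled Bmp4cKO of replicate 2. In all, 8 of the 9 regulators were highest in that RNA, and Mkl2 was highest in the RNA labelled control of replicate 2. Over all genes tested, 36.2% were highest in the RNA labelled Bmp4cKO of replicate 2, and 8278 of 21977 in its control-labelled partner. Processed signals were used without normalisation between the arrays, so which RNA is highest can also follow the array. In the 8 regulators the signal of the RNA labelled Bmp4cKO of replicate 2 was 1.01 to 2.42 times that of the next RNA, with a median of 1.28. Replicate, labelled sex and dye orientation change together between the arrays and cannot be told apart. On replicate 2 the paired RNAs also differed in their sex-linked transcripts, and that difference cannot be told apart from the labelled genotype on that array.

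**Figure D3:**
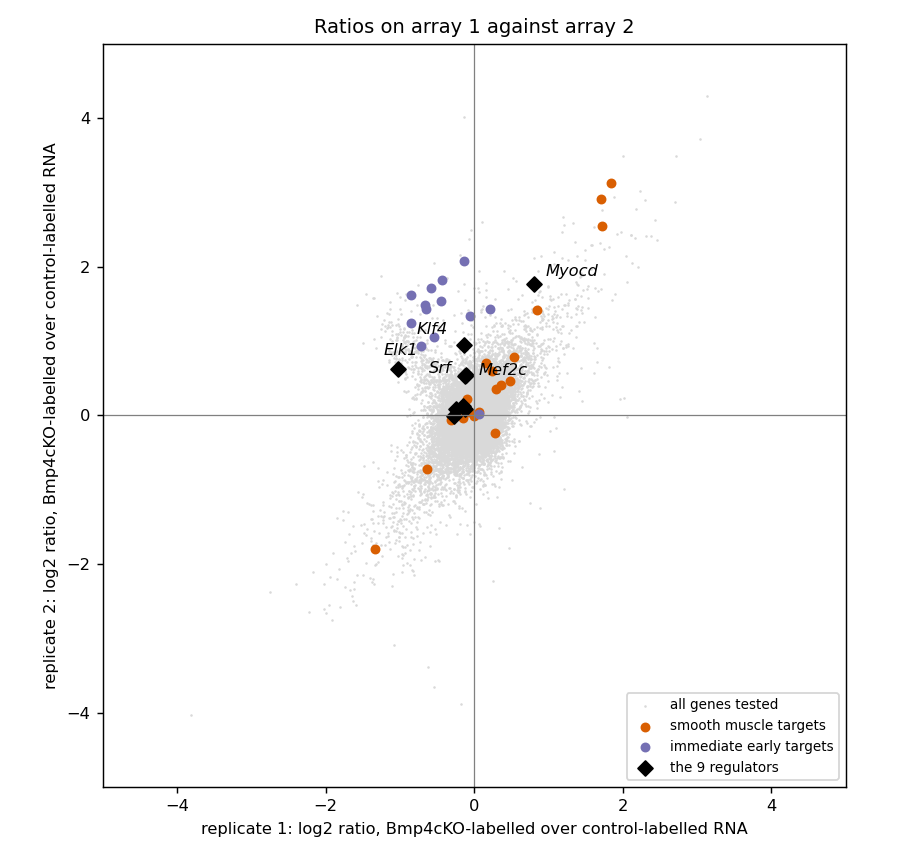
Log2 ratio on replicate 1 (horizontal) against replicate 2 (vertical), Bmp4cKO-labelled over control-labelled RNA, for all 21977 genes tested (grey), the 9 regulators (black diamonds), smooth muscle targets (orange) and immediate early targets (purple). Myocd lies in the upper right with Myh11, Actg2 and Cnn1, and the other regulators with the immediate early genes lie mostly left of 0 and above it.

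The targets of these regulators were described by fixed lists, which were chosen with earlier results of these data known. Their counts are therefore no independent support. Of the 20 smooth muscle targets of SRF and myocardin, 19 could be tested, 3 rose and 1 fell, against 0.887% higher and 1.02% lower over all genes. At an unadjusted p under 0.05 there were 12 of the 19, against 3191 of all 21977 genes. Their median log2 ratio was 0.32 (0.24 and 0.36 on replicates 1 and 2), against -0.01 over all genes tested. Higher on both arrays were 11 of the 19 (28.2% of all genes), and lower on both were 5 (30.6%). Those that rose encode proteins of the mature contractile apparatus. Myh11, smooth muscle myosin heavy chain, had 787 and 2054 in the RNAs labelled Bmp4cKO against 194 and 207 in the RNAs labelled control, log2 ratios of 1.85 and 3.12 (mean 2.48 ± 0.90, limma adjusted p = 0.037). Actg2, the enteric smooth muscle actin, had 2008 and 5266 against 595 and 677 in the same order, with ratios of 1.71 and 2.91 (mean 2.31 ± 0.85, limma adjusted p = 0.038). For Cnn1, calponin, the values were 3460 and 6384 against 1078 and 1031, and the ratios 1.73 and 2.55 (mean 2.14 ± 0.58, limma adjusted p = 0.026). In each of these genes both RNAs labelled Bmp4cKO were above both RNAs labelled control, and the RNA labelled Bmp4cKO of replicate 2 was the highest, as for Myocd. Synpo2, which encodes an actin-bundling protein of muscle, fell to 212 and 206 in the RNAs labelled Bmp4cKO, against 569 and 804 in the RNAs labelled control (log2 -1.34 and -1.81, mean -1.57 ± 0.33, limma adjusted p = 0.026). Acta2, smooth muscle actin, did not pass, with log2 ratios of 0.84 and 1.42 (limma adjusted p = 0.056), and Tagln, transgelin, had 0.16 and 0.70 (limma adjusted p = 0.343).

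The calls of Myh11 and Actg2 were lost with a robust prior (limma adjusted p = 0.142 and 0.126), and those of all 4 genes with median centring of the arrays or an intensity trend in the prior. Averaged over its passing probes, Synpo2 had a smaller mean log2 ratio of -0.91. The 5 smooth muscle markers, Acta2, Myh11, Tagln, Cnn1 and Actg2, are themselves in this list. Their summed signal was 30540 and 45345 in the RNAs labelled Bmp4cKO against 18763 and 15914 in the RNAs labelled control. Such sums follow the brightest probes, here Acta2 and Tagln, which were not called. Markers of other tissues moved as well. The 5 urothelial markers summed to 11744 and 15175 in the RNAs labelled Bmp4cKO against 2330 and 1849 in the RNAs labelled control, and 4 of them, Upk1a, Upk1b, Upk2 and Upk3a, rose. Of the neuronal and Schwann cell markers, Tubb3 fell to 250 and 181 in the RNAs labelled Bmp4cKO, against 672 and 711 in the RNAs labelled control, and Elavl3 fell to 69.5 and 66.8, against 150.0 and 172 in the same order. The 5 endothelial markers, of a cell type known to express Mef2c and Klf4 too, were higher on both arrays (28.2% of all genes). In limma 0 were called (1.91% of all genes) and 3 were at an unadjusted p under 0.05 (3191 of all 21977 genes). Their signals summed to 24294 and 31753 against 19180 and 21277. The 5 macrophage and leukocyte markers had 0 called in limma, 1 at an unadjusted p under 0.05, and sums of 4919 and 4395 against 4442 and 4911. Of the ureteric mesenchyme markers, Tbx18 and Gata6 rose. The others were not called: Tshz3 had log2 ratios of -0.07 and -0.10, Sox9 0.63 and -0.13, and Ptch1 -0.42 and 0.21. The median log2 ratio of the 5 was 0.25. They summed to 29771 and 33966 against 17647 and 20926, and Gata6 gave the largest part of that sum in every RNA. The 6 markers of skeletal and heart muscle summed to 5866 and 9939 against 3919 and 4632, with Actc1 called higher and Myog lower. Actc1 gave most of that sum in every RNA, while 4 of the 6 were lower on both arrays and the median log2 ratio was -0.17. No marker gene was at 0 in any channel. Their part in the values of the regulators was not tested.

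Of the 16 cytoskeletal targets of SRF and the MRTFs, 0 were called in limma (1.91% of all genes). At an unadjusted p under 0.05 in limma there were 4 of them (3191 of all 21977 genes). The median log2 ratio of the 16 was -0.04 (-0.24 and 0.16 on replicates 1 and 2). Below 0 on replicate 1 and above 0 on replicate 2 were 8 of the 16, against 18.9% of all genes. Those with the largest mean ratios were Ccn2 and Filip1l, and neither passed. Ccn2, a secreted matricellular protein formerly named Ctgf, had 2738 and 3585 in the RNAs labelled Bmp4cKO against 1668 and 2005 in the RNAs labelled control, ratios of 0.71 and 0.85 (limma adjusted p = 0.056, and under the threshold in 4 of 13 alternatives). Filip1l, a filamin-interacting protein, had 1897 and 1719 against 2723 and 2725 in the same order, ratios of -0.53 and -0.63 (limma adjusted p = 0.099). In both, the groups did not overlap. Actb, cytoplasmic actin, showed the widest split, with -1.35 on replicate 1 and 1.58 on replicate 2.

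The immediate early genes, which SRF and ternary complex factors such as ELK1 switch on, split between the arrays. Of 14 in the list, 13 could be tested and 0 were called in limma (1.91% of all genes). Only 1 of them, Arc, was at an unadjusted p under 0.05 in limma (3191 of all 21977 genes). The median ratio (log2) of the 13 stood at -0.55 on replicate 1 but at 1.43 on replicate 2. Of the 13, 11 were below 0 on replicate 1 and above 0 on replicate 2, against 18.9% of all genes. All 13 were highest in the RNA labelled Bmp4cKO of replicate 2, as were 36.2% of all genes. Its control-labelled partner was the highest for 8278 of all 21977 genes. In the 13, the signal of the highest RNA was 1.06 to 4.68 times that of the next RNA, with a median of 2.03. Egr2, a zinc finger factor, had 126 and 637 in the RNAs labelled Bmp4cKO against 136 and 122 in the RNAs labelled control, ratios of -0.14 and 2.08 (limma adjusted p = 0.501). Arc, a cytoskeleton-associated protein best known from neurons, had 116 and 486 against 93.7 and 154 in the same order, ratios of 0.22 and 1.43 (limma adjusted p = 0.303). Fos had 8938 and 34920 in the RNAs labelled Bmp4cKO against 12932 and 9537 in the RNAs labelled control. In Egr2 and Fos 3 RNAs lay near each other and 1 stood apart. Fos was named after its values were seen. Without replicate 2 the median of the list is -0.55 and without replicate 1 it is 1.43, so its direction rests on which array is kept.

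Of the 10 genes known as targets of MEF2 factors in other muscles and cells, 8 could be tested. Of these 1 fell (1.02% of all genes), and the median log2 ratio was -0.02. Myog, the skeletal muscle factor myogenin, fell to 158 and 138 in the RNAs labelled Bmp4cKO, against 319 and 295 in the RNAs labelled control (log2 -0.89 and -0.90, mean -0.89 ± 0.01, limma adjusted p = 0.039). Ureter muscle is smooth, and myogenin marks skeletal muscle precursors. Its call was lost in 4 of 13 alternatives, with limma adjusted p from 0.026 to 0.316.

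Among 26 related regulators and cofactors, 25 could be tested, and 0 were called in limma (1.91% of all genes). At an unadjusted p under 0.05 in limma there were 4 of the 25 (3191 of all 21977 genes). The median log2 ratio was 0.03 (-0.01 and 0.10 on replicates 1 and 2). The list holds the other ternary complex factors, Mef2b, related KLF factors and class II histone deacetylases that bind MEF2, among others. Klf5, a zinc finger factor that promotes growth of smooth muscle and epithelial cells, had 6202 and 10632 in the RNAs labelled Bmp4cKO against 4091 and 5349 in the RNAs labelled control, ratios of 0.64 and 0.91 (limma adjusted p = 0.064). Klf2, a factor of endothelial cells that responds to flow, had 5529 and 13082 against 4727 and 4959 in the same order, ratios of 0.10 and 1.43 (limma adjusted p = 0.380). In both genes the groups did not overlap, and neither passed.

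A last list held 8 matrix and mesenchymal genes that rise when smooth muscle identity is lost, or that myocardin represses in other tissues. In it, 0 of 8 were called in limma (1.91% of all genes) and 2 were at an unadjusted p under 0.05 (3191 of all 21977 genes). The median log2 ratio was -0.10 (-0.10 and -0.05 on replicates 1 and 2). Spp1, osteopontin, had 295 and 191 in the RNAs labelled Bmp4cKO against 488 and 649 in the RNAs labelled control, ratios of -0.69 and -1.58 (limma adjusted p = 0.100). Mgp, matrix Gla protein, had 29009 and 31357 against 21529 and 21178 in the same order, ratios of 0.41 and 0.68 (limma adjusted p = 0.143). The groups of both genes lay apart, in opposite directions, and neither passed. Over 13 alternatives, Spp1 was under the threshold in 1, the separate-channel fit with a dye term (limma adjusted p = 0.026), and Mgp in 0.

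**Figure D4:**
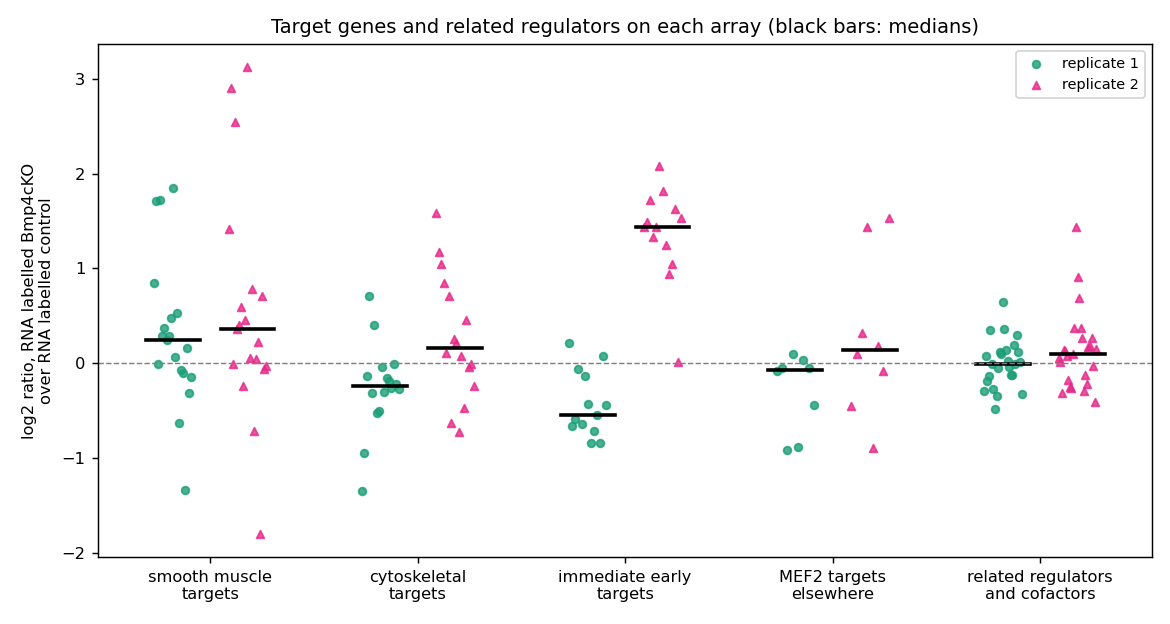
Log2 ratio of each tested gene of 5 lists, Bmp4cKO-labelled over control-labelled RNA, green circles for replicate 1 and pink triangles for replicate 2, with black bars at the medians. The smooth muscle targets have medians of 0.24 and 0.36, and the immediate early targets have medians of -0.55 and 1.43.

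CArG boxes were searched in the promoter windows of the targets as well. Windows were found for 16 of the 19 smooth muscle targets, 12 of the 16 cytoskeletal and 10 of the 13 immediate early ones. Of the 5 smooth muscle markers only 2 had a window. Genes without a window were not searched. A box was found in 15% of the windows of smooth muscle targets (Fhl2 and Myl9), in 35.7% of those of cytoskeletal targets (Actg1, Cnn2, Fhl1, Filip1l and Vcl) and in 35.7% of those of immediate early targets (Dusp5 and Egr2), against 1.63% of all windows. These lists were drawn from genes known to answer to SRF, and windows of 1 gene can overlap: the Egr2 box was counted in 4 windows. None of the 5 genes of the cytoskeletal list with a box was called in limma, and neither were Fhl2, Myl9, Dusp5 and Egr2. Of all genes 1.91% were called, and no gene of the cytoskeletal or immediate early lists was called at all. The absence of calls therefore does not bear on the box.

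The 5 genes whose pair of ratios lay nearest to that of Myocd were found by the Euclidean distance over the 2 arrays. They were 3830417A13Rik at 0.12, Lmo1 at 0.13, LOC640605 at 0.16, Lamb3 at 0.18 and, at 0.18, a transcript that the gene table did not name. Lmo1, encoding a LIM-domain protein of transcription complexes, had ratios of 0.87 and 1.66, and Lamb3, a laminin chain of epithelial basement membranes, had 0.85 and 1.94. With 2 arrays, a likeness over 2 values describes these arrays only.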

How the data were processed

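RNA of ureters labelled Bmp4cKO and control was compared on 2 two-colour Agilent arrays, which lay on 1 slide and in 1 scan per the file headers. The authors quantified spots with Agilent Feature Extraction 10.7.3.1, per the submitters' processing notes. Spot and local background were deposited as linear intensities. Processed signals, also deposited, are intensities after the software's background subtraction and dye normalisation, per the file headers. Log ratios were deposited as log10, red over green. Another table deposited by the authors gives each probe a score, which behaved as a signed fold change: in 99.7% (replicate 1) and 99.6% (replicate 2) of probes above background in all channels, its size matched the scanner ratio to within 0.01 on the log2 scale. Its sign ran red over green on replicate 1, green over red on replicate 2. Both columns had a median of 1, and no source used here states the centring.

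Background was corrected with normexp (offset 50) and ratios were normalised by loess in limma 3.58.1 under R 4.3.3, control spots at weight 0. No probe spot was saturated, and 231 and 235 probe spots marked as outliers were left out. Of 39429 probes, 26412 were named through an accession, 3854 through a symbol and 735 through a synonym in a RefSeq table (GRCm38.p6), while 8428 stayed under the name on the array. To pass, a probe had to be well above background in both Bmp4cKO-labelled RNAs or in both control-labelled RNAs. The brightest passing probe stood for its gene, which left 21977 genes. The array ratios were fitted with lmFit and eBayes, with Benjamini-Hochberg adjustment over all genes. Each test had 1 residual and 4.03 prior degrees of freedom. The fit was tested on simulated data. In a channel 68.4% to 73.9% of probes were well above background, and the number of arrays limits the precision. Probe positions are of build mm9, per the file headers, and exon or UTR positions were not analysed here.

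Genes named by rule beside the members are Bmp4, Tbx18, the called genes of each list (at most 4) and the 5 nearest to the leading member. With none called in a list, the 2 of largest mean ratio were named. Cell type markers, sex-linked genes and genes with a promoter box were named too. The ratios of Acta2 and Tagln, and Actb and Fos, were given outside this rule, Actb for the widest split of its list. The members and lists were chosen with earlier results of these data known. Alternatives changed background correction, normalisation, filter, probe choice, prior, channel model and arrays kept. A fit per probe and a dye term were added after seeing the data. The RNAs of an array are paired by the hybridisation itself. Deviations of the channels from their group means correlated at 0.28 within an array, across genes. Some neuronal and Schwann cell markers are not reported here.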

Additional observations from a re-analysis of the deposited data

Results flagged for a closer look

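Ratios that turned sign between the arrays drew attention for 7 regulators, all below 0 on replicate 1 and above 0 on replicate 2. The log2 ratio of replicate 2 minus that of replicate 1 was 0.65 for Srf, 0.21 for Mkl1, 0.32 for Mef2a, 0.66 for Mef2c, 0.27 for Mef2d, 1.09 for Klf4 and 1.65 for Elk1. The arrays differ in labelled sex and in dye orientation, and only on replicate 2 did the paired RNAs differ in sex-linked transcripts. The difference was tested by the limma fit of red over green, which called 0 of 21977 genes (483 at an unadjusted p under 0.05). It gave each of these genes an adjusted p of 1.00, while the unadjusted limma p of Elk1 was 0.014. This fit uses the same 2 arrays, and a gene's difference between the labelled genotypes enters its residual. The 0 calls therefore do not show that the arrays agree. For the Elk1 probe, shared bases with other loci are described above.

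The medians of 4 lists turned sign in the same way. Replicate 2 minus replicate 1 was 1.98 for the immediate early targets, 0.40 for the cytoskeletal targets, 0.21 for the MEF2 targets of other cells and 0.11 for the related regulators and cofactors. These differences of medians were not tested.

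The Y-linked genes Ddx3y and Eif2s3y, used only as a check of the labels, read 2720 and 2741 in the RNA labelled control of replicate 2 and were not well above background in the other 3 RNAs.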

How the results depend on the processing

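Counts of called genes depended on the setting. Against 195 higher and 225 lower, there were 339 and 388 with plain background subtraction, 305 and 348 with a normexp offset of 16, 298 and 338 from the authors' value table turned by the dye labels, and 0 and 0 with median centring or with an intensity trend in the prior. Without the replicate block, Actg2 (adjusted p = 0.051) and Myog (0.066) were no longer called. The other alternatives stayed within 1.5 times, among them the separate-channel fit with the array as replicate block (195 and 225), without the replicate block (155 and 171) and with a dye term (195 and 220).

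Over 13 alternatives, Myocd kept a log2 ratio of 1.29 to 1.58 with adjusted p from 0.048 to 0.44, and was called in 1, plain background subtraction (1.47, adjusted p = 0.048), where the count of members called higher was 1 in place of 0. On single arrays it was 0.81 and 1.77. No other member passed in any alternative. For Elk1 the SD over the 2 arrays was 1.17 with loess, 0.54 with processed signals and 2.41 with median centring. Signs turned for Mkl1 with median centring (0.00605), for Mkl2 with the mean of its probes (0.046) and with its second probe alone (0.38), and for Elk1 with its second probe (0.0808); different probes were read in the last cases, and the cause for Mkl1 was not tested. Leaving out each replicate in turn gave -0.13 to 0.52 for Srf, -0.121 to 0.0841 for Mkl1, -0.243 to 0.0805 for Mef2a, -0.12 to 0.54 for Mef2c, -0.15 to 0.12 for Mef2d, -0.14 to 0.95 for Klf4, -1.03 to 0.62 for Elk1 and -0.14 to 2.08 for Egr2.

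Without either array no test is left. Dim probes such as the second Mkl2 probe lie near background, where the offset of 50 pulls ratios toward 0.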
